A study of Mus with 9 samples.

Results

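Lymphatic endothelial cells line the vessels that drain fluid and immune cells from tissue, and in the heart these vessels run mainly under the epicardium. Their identity is set by the transcription factor Prox1, and their growth is driven by the secreted factor VEGF-C (gene Vegfc) acting on the receptor VEGFR-3 (gene Flt4). Lyve1, Pdpn, Mmrn1 and Reln encode surface or secreted proteins used to recognise these cells. None of the genes is exclusive to them in the heart: Prox1 is also expressed in heart muscle, Lyve1 in resident macrophages, Pdpn in activated fibroblasts and mesothelium, and Mmrn1 in platelets.

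The rows of the raw count table named Prox1, Flt4, Lyve1, Pdpn, Mmrn1, Reln and Vegfc were taken, which gave 7 genes of 55421. All 7 passed the filter on low counts that left 19326 genes for testing. The table came from bulk RNA sequencing of 9 libraries in 3 groups of 3. MI_ART libraries (titled 1, 2 and 3) came from mice with permanent ligation of the left anterior descending coronary artery, which causes myocardial infarction, and intraperitoneal artesunate, an antimalarial artemisinin derivative, in dimethyl sulfoxide. MI libraries (titled 2, 3 and 4) came from ligated mice given vehicle, and Sham libraries (1, 2 and 3) from mice that had the surgery without the ligation, also with vehicle. All were male wild-type C57BL/6J mice of 8 to 10 weeks, and the tissue is given as atria in the sample labels and as left atrium in the series text.

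The labels disagree on the treatment: one text gives artesunate at 25 mg/kg daily for 7 days from surgery, the other 10 mg/kg every other day from 2 days before surgery until day 7. The growth text speaks of rats and of a further group, and the day of harvest is not stated for the libraries. Nothing says that the libraries of a group came from separate animals, and all p-values rest on the variation among libraries, which may be technical.

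Total counts ran from 68046341 to 83685313 per library. Levels are in CPM, counts scaled to a common library size after correction by TMM, a scaling that assumes most genes do not change. They cannot be compared between genes, because transcript length is not corrected. Mitochondrially encoded genes took 23.05% to 25.5% of the counts in MI_ART and 12.6% to 20.6% in MI libraries, against 37.7% to 43.1% in Sham libraries. With total counts in place of TMM, the median log2 fold change of all genes moved to 0.88 in MI versus Sham, 0.75 in MI_ART versus Sham and -0.11 in MI_ART versus MI. Every direction against Sham below is therefore relative to most genes, and the direction of any gene that fell by less than that shift depends on it. In MI versus Sham the split of all genes called was 3631 higher and 2768 lower with TMM, and 9528 higher and 644 lower with total counts.

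The libraries MI 4 and MI_ART 3 stood apart, MI 4 by chi-square over genes and MI_ART 3 in atrial and mesothelial markers. The chi-square between MI 4 and MI 2 or MI 3 was 538 or 432 per gene, where the other pairs within groups gave 63.6 to 122. It had 3902 counts of Bmp10, which marks the right atrium of the adult mouse heart, against 0 to 16 in the other libraries (a gene named after its values were seen). MI_ART 3 had 1.96 CPM of the atrial light chain Myl7, against 168 to 990 CPM in the other libraries, so that the level of the ventricular light chain Myl2 was 784 times that of Myl7, against 0.46 to 17.7 times elsewhere. MI_ART 3 thus went furthest against its atrial label in this marker. It also had the lowest summed level of 10 mesothelial and epicardial genes, 68.9 CPM, against 84.6 to 316 CPM in the other libraries. Its chi-square against MI_ART 1 and 2 was 71.5 and 115 per gene, within the range of the other pairs. Myl2 was also above Myl7 in every other library except MI 4. The ratio of Myl2 to Myl7 was 0.46 to 2.36 in MI and 3.64 to 17.7 in Sham libraries, without overlap. A difference in atrial and ventricular share between these groups was not tested. Values that moved markedly without MI 4 or MI_ART 3 are given with and without that library.

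Prox1, the transcription factor that specifies lymphatic endothelium, lies on chromosome 1 from 190118035 to 190170827 (GRCm38). It measured 34.4, 38.8 and 29.6 CPM in MI_ART 1, 2 and 3, 32.6, 23.7 and 7.63 CPM in MI 2, 3 and 4, and 65.3, 61.9 and 46.3 CPM in Sham 1, 2 and 3. Every library from infarcted mice was below every Sham library, MI 4 was the lowest of all, and MI_ART and MI libraries overlapped. Mean levels were 34.2 ± 4.62 CPM in MI_ART, 21.3 ± 12.6 CPM in MI and 57.8 ± 10.2 CPM in Sham (SD, n = 3 each). The antisense transcript Prox1os overlaps the locus and had 9 to 68 counts per library beside 708 to 3544 for Prox1; the strand setting of the counting is not given in the sources used here.

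Flt4 (chromosome 11, 49609679 to 49652739) encodes VEGFR-3, the receptor for VEGF-C and VEGF-D. Its level was 16.7, 13.1 and 13.7 CPM in MI_ART 1, 2 and 3, 13.1, 15.2 and 13.7 CPM in MI 2, 3 and 4, and 9.24, 11.8 and 7.87 CPM in Sham 1, 2 and 3. All 6 libraries from infarcted mice lay above the 3 Sham libraries, while MI_ART and MI libraries overlapped. The means were 14.5 ± 1.92 CPM in MI_ART, 13.98 ± 1.07 CPM in MI and 9.64 ± 2.00 CPM in Sham (SD, n = 3 each).

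Vegfc (chromosome 8, 54077532 to 54186454), the ligand of that receptor, varied least among the 7 genes. It measured 6.82, 7.03 and 7.40 CPM in MI_ART 1, 2 and 3, 7.13, 8.10 and 6.68 CPM in MI 2, 3 and 4, and 7.54, 7.78 and 8.62 CPM in Sham 1, 2 and 3. MI libraries overlapped both other groups, and the MI_ART libraries fell just below the Sham libraries. Mean levels were 7.08 ± 0.29 CPM in MI_ART, 7.30 ± 0.72 CPM in MI and 7.98 ± 0.57 CPM in Sham (SD, n = 3 each).

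Lyve1 (chromosome 7, 110850607 to 110862953) encodes a hyaluronan receptor of lymphatic capillaries. Its level was 13.1, 15.5 and 13.2 CPM in MI_ART 1, 2 and 3, 15.6, 10.9 and 8.86 CPM in MI 2, 3 and 4, and 20.6, 15.2 and 22.1 CPM in Sham 1, 2 and 3. Sham 2 lay within the range of the infarcted libraries, so the groups overlapped in all 3 comparisons. Means were 13.9 ± 1.35 CPM in MI_ART, 11.8 ± 3.44 CPM in MI and 19.3 ± 3.64 CPM in Sham (SD, n = 3 each).

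Pdpn (chromosome 4, 143267409 to 143299564) encodes podoplanin, a mucin-type membrane glycoprotein that binds the platelet receptor CLEC-2. It measured 23.3, 17.0 and 16.9 CPM in MI_ART 1, 2 and 3, 19.0, 23.3 and 28.0 CPM in MI 2, 3 and 4, and 5.29, 4.30 and 4.56 CPM in Sham 1, 2 and 3. Every infarcted library lay far above every Sham library, and MI_ART and MI libraries overlapped. Means were 19.0 ± 3.68 CPM in MI_ART, 23.4 ± 4.53 CPM in MI and 4.72 ± 0.51 CPM in Sham (SD, n = 3 each).

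Mmrn1 (chromosome 6, 60944317 to 60989378) encodes multimerin 1, a large secreted adhesive protein of endothelium and platelets. Its level was 6.88, 7.79 and 11.8 CPM in MI_ART 1, 2 and 3, 5.71, 3.61 and 2.85 CPM in MI 2, 3 and 4, and 15.6, 13.8 and 14.5 CPM in Sham 1, 2 and 3. The 3 groups did not overlap at all: Sham was highest, MI_ART between and MI lowest. MI_ART 3, the library with little Myl7, was the highest of its group. Means were 8.81 ± 2.59 CPM in MI_ART, 4.05 ± 1.48 CPM in MI and 14.6 ± 0.91 CPM in Sham (SD, n = 3 each).

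Reln (chromosome 5, 21884454 to 22344705) encodes reelin, a secreted glycoprotein that cardiac lymphatic vessels release and that promotes muscle cell survival in the mouse heart. It measured 4.25, 5.29 and 5.23 CPM in MI_ART 1, 2 and 3, 3.38, 2.11 and 2.62 CPM in MI 2, 3 and 4, and 6.51, 7.25 and 5.32 CPM in Sham 1, 2 and 3. The order was the same as for Mmrn1, again without overlap between groups, though the highest MI_ART library was only just below Sham 3. Means were 4.92 ± 0.59 CPM in MI_ART, 2.70 ± 0.64 CPM in MI and 6.36 ± 0.97 CPM in Sham (SD, n = 3 each).

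**Figure D1:**
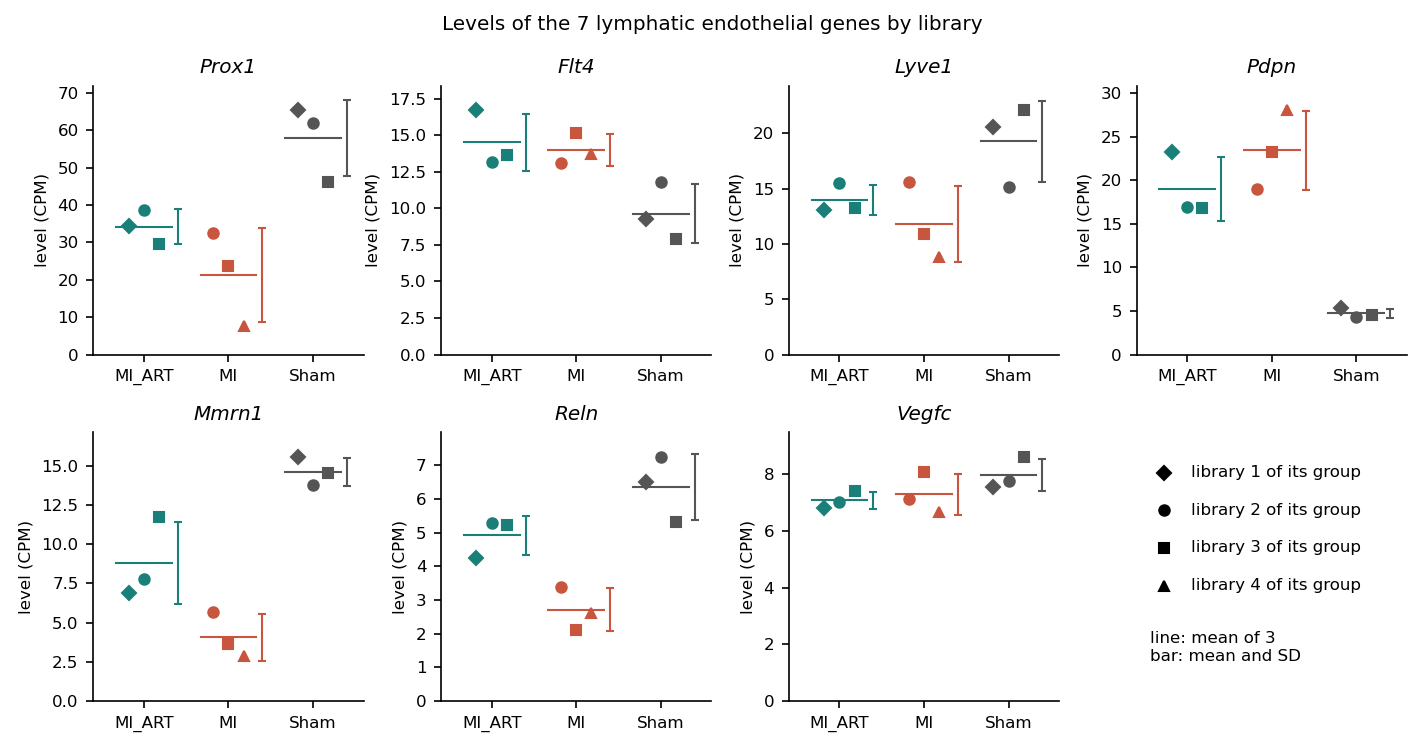
Level in CPM (y axis, linear, from 0) of each of the 7 genes in the 9 libraries, by group (x axis); points are libraries, lines are means and bars are SD (n = 3). Pdpn stood at 16.9 CPM or more in every MI_ART and MI library and at 5.29 CPM or less in Sham, and for Mmrn1 and Reln the MI_ART libraries lay between the MI and the Sham libraries.

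The comparison of MI with Sham asks how the sampled tissue, labelled as atria, differs after infarction. Relative to most genes, Pdpn rose 4.96-fold, Mmrn1 fell 3.602-fold, Prox1 2.72-fold, Reln 2.35-fold and Lyve1 1.64-fold, but the sign of Lyve1 turned to positive with total counts. Flt4 and Vegfc did not pass the test with TMM, though both did with total counts. By edgeR's quasi-likelihood F test with Benjamini-Hochberg adjustment over all tested genes, 1 of the 7 was higher and 4 were lower at an adjusted p under 0.05, where 18.8% of all genes tested were called higher and 14.3% lower. The groups did not overlap for 5 of the 7, against 48.9% of all genes tested. The median log2 fold change was -0.71 over the 7 genes and 0.04 over all genes tested.

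On the log2 scale Pdpn changed by 2.31 (SE 0.22, adjusted p = 0.000117, edgeR), Mmrn1 by -1.85 (SE 0.30, adjusted p = 0.00137) and Reln by -1.23 (SE 0.25, adjusted p = 0.00411). All 3 genes kept their call without MI 4 and MI_ART 3, at 2.16, -1.65 and -1.21. Prox1 changed by -1.44 (SE 0.42, adjusted p = 0.0250, edgeR) and by -1.04 (adjusted p = 0.00743) without those 2 libraries. Its call was lost when Sham 1, Sham 2 or MI 3 was left out, with adjusted p = 0.0722, 0.0684 and 0.0555. Lyve1, whose libraries overlapped, changed by -0.71 (SE 0.24, adjusted p = 0.0445, edgeR), and without MI 4 by -0.54 with an adjusted p of 0.0880. In bulk tissue a lower level can come from fewer cells of a type or from less RNA of the gene per cell, which cannot be told apart.

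The log2 fold change of Flt4 was 0.54 (95% interval 0.09 to 0.98, adjusted p = 0.0629, edgeR), and DESeq2 called it higher (adjusted p = 0.0364). For Vegfc the value was -0.13 (95% interval -0.52 to 0.26, adjusted p = 0.611, edgeR). With total counts the log2 fold changes were 3.17 for Pdpn, 1.37 for Flt4, 0.73 for Vegfc, 0.14 for Lyve1, -0.41 for Reln, -0.63 for Prox1 and -1.01 for Mmrn1. Pdpn and Mmrn1 kept their calls on that scale (adjusted p = 0.0144 for Mmrn1), Reln, Prox1 and Lyve1 lost theirs (0.219, 0.230 and 0.608), Lyve1 turned to positive, and Flt4 and Vegfc were called higher (0.00101 and 0.00714), Vegfc with a change of sign. Relative to the shift of all genes on that scale, the values were 2.28 for Pdpn, 0.49 for Flt4, -0.16 for Vegfc, -0.74 for Lyve1, -1.29 for Reln, -1.51 for Prox1 and -1.90 for Mmrn1.

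The comparison of MI_ART with MI asks what artesunate changed in infarcted mice. None of the 7 genes passed the test. Mmrn1 and Reln were the genes whose libraries did not overlap, both with higher levels in MI_ART. Of the 7 genes, 0 were called by edgeR, 0 by DESeq2 and 0 by limma-voom, and 2 had an unadjusted p under 0.05. Over all genes tested 0% were called higher and 0.0103% lower (edgeR), and 13.9% did not overlap, against 2 of the 7 here. An unadjusted p under 0.05 (edgeR) was reached by 1346 of the 19326 genes. DESeq2 called 48 of all genes higher and 40 lower.

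For Mmrn1 the log2 difference was 1.12 (SE 0.29, 95% interval 0.46 to 1.77, unadjusted p = 0.00351, adjusted p = 0.650, edgeR), with 3 of 3 MI_ART libraries above the 3 MI libraries. DESeq2 gave it an adjusted p of 0.0700, and over the 20 alternatives the adjusted p ran up to 0.960. Without MI 4 and MI_ART 3 its value was 0.65. Reln had a value of 0.86 (SE 0.24, 95% interval 0.32 to 1.41, unadjusted p = 0.00565, adjusted p = 0.656, edgeR), again with 3 of 3 MI_ART libraries above MI, and of 0.79 without those libraries. DESeq2 gave Reln an adjusted p of 0.129.

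For the other 5 genes the MI_ART and MI libraries overlapped. Prox1 differed by 0.69 (95% interval -0.24 to 1.61) and by 0.38 without the 2 libraries that stood apart. The log2 differences were 0.24 for Lyve1 (-0.29 to 0.77), -0.30 for Pdpn (-0.76 to 0.16), 0.052 for Flt4 (-0.39 to 0.49) and -0.044 for Vegfc (-0.43 to 0.34). These intervals leave room for changes of either sign in each of the 5 genes.

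The comparison of MI_ART with Sham shares its libraries with the other comparisons, so its values stand beside them and add no separate evidence. Pdpn rose 4.03-fold in MI_ART (log2 fold change 2.01, SE 0.22, adjusted p = 0.000304, edgeR). It was the 1 gene of 7 called, where 12.9% of all genes tested were higher and 7.41% lower. The groups did not overlap for 6 of the 7, with Pdpn and Flt4 above and Prox1, Mmrn1, Reln and Vegfc below Sham, against 48.2% of all genes tested. With total counts Lyve1, Mmrn1, Reln and Vegfc took positive values (0.28, 0.014, 0.36 and 0.57), Vegfc and Flt4 were called higher (adjusted p = 0.0273 and 0.00195, edgeR), and 8032 of all genes were called higher and 124 lower, in place of 2488 and 1433.

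The log2 fold change of Flt4 was 0.59 (adjusted p = 0.0639, edgeR), beside 0.54 in MI versus Sham. The values were -0.76 for Prox1 (adjusted p = 0.239), -0.73 for Mmrn1 (0.108), -0.47 for Lyve1 (0.204), -0.37 for Reln (0.330) and -0.17 for Vegfc (0.547). In MI versus Sham the same genes had -1.44, -1.85, -0.71, -1.23 and -0.13. Without MI 4, Prox1 passed the test here (adjusted p = 0.0135, edgeR) at nearly the same value of -0.75, and Flt4 did so at 0.59 (adjusted p = 0.0371). Without both libraries that stood apart, Mmrn1 passed the test at -0.99 (adjusted p = 0.0173).

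**Figure D2:**
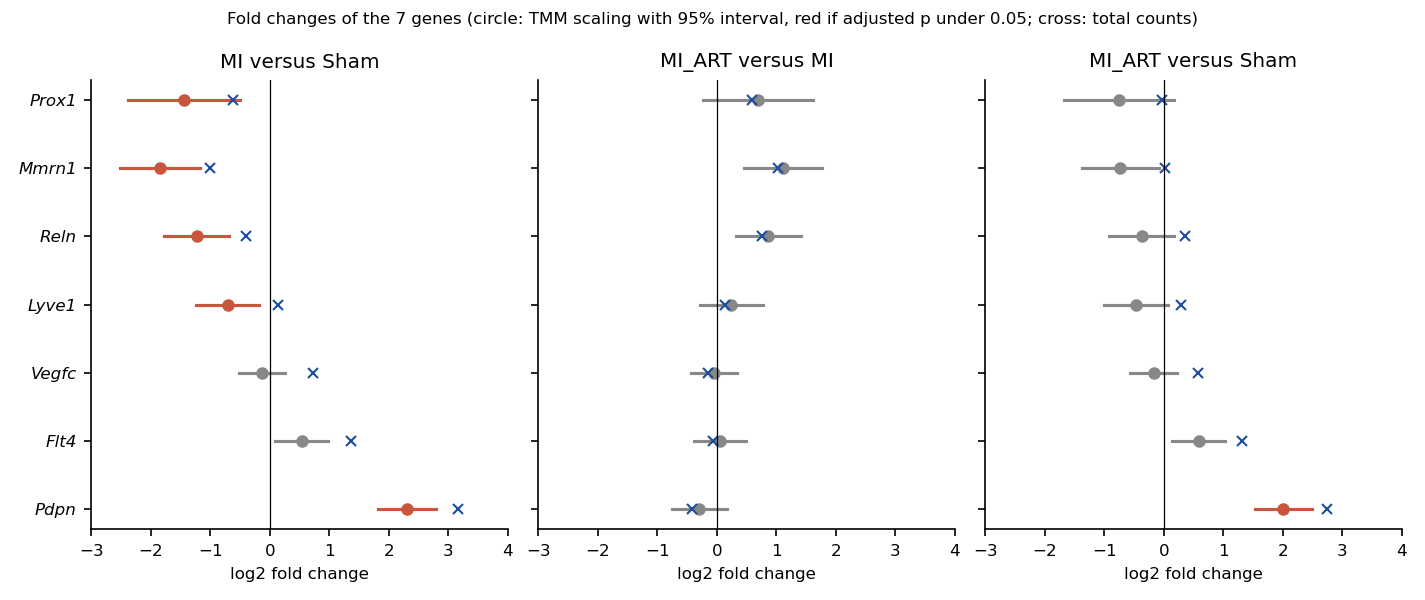
Log2 fold change (x axis) of the 7 genes in the 3 comparisons; circles with lines give the TMM-scaled value with its 95% interval, red where the adjusted p was under 0.05, and crosses give the value with total counts. Pdpn was positive against Sham on both scales (2.31 and 3.17 in MI versus Sham), while the crosses of Lyve1 and Vegfc in MI versus Sham, and of Lyve1, Mmrn1, Reln and Vegfc in MI_ART versus Sham, lay on the other side of 0 from the circles.

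Around these genes stands the rest of the VEGF-C pathway, for which 13 further genes were listed. In MI versus Sham 3 of the 13 were higher, 3 were lower and 7 did not pass the test (edgeR). The median log2 fold change was -0.40. With total counts 6 were higher and none lower, with a median of 0.42. Of all 19326 genes tested, 18.8% were higher and 14.3% lower in that comparison, and with total counts 9528 were higher and 644 lower. For MI_ART versus Sham these were 12.9% and 7.41%, and 8032 and 124 genes with total counts. The counts of this and the later lists are to be read beside these shares. Vegfd, which encodes the other ligand of VEGFR-3, measured 7.86, 5.91 and 6.14 CPM in MI_ART 1, 2 and 3, 7.20, 5.82 and 8.04 CPM in MI 2, 3 and 4, and 2.23, 2.05 and 2.41 CPM in Sham 1, 2 and 3. All infarcted libraries lay above Sham, and Vegfd rose by 1.65 in MI (SE 0.22, adjusted p = 0.000537, edgeR) and by 1.57 in MI_ART (SE 0.22, adjusted p = 0.001197).

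Among the proteases that release active VEGF-C, Adamts3 had a log2 fold change of -0.40 (adjusted p = 0.542, edgeR) in MI versus Sham, and its cofactor Ccbe1 one of -0.56 (0.104). Adamts14, a procollagen protease related to Adamts3, averaged 3.59 CPM in MI_ART, 4.59 CPM in MI and 0.47 CPM in Sham and rose by 3.29 in MI (SE 0.46, adjusted p = 0.000637). Pgf, placental growth factor, also rose in MI, by 1.51 (adjusted p = 0.0158).

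Kdr, which encodes VEGFR-2 of blood vessels, fell by 0.83 (adjusted p = 0.0338, edgeR) and Flt1, VEGFR-1, fell by 0.73 (0.00700) in MI versus Sham. Vegfb, a ligand of VEGFR-1, fell by 0.97 (0.0188), and none of these 3 was called lower with total counts. Without MI_ART 3 Kdr lost its call (0.0549). Nrp2, the VEGF-C coreceptor neuropilin 2, averaged 64.7 CPM in MI_ART, 52.2 CPM in MI and 35.5 CPM in Sham. Nrp2 rose by 0.86 in MI_ART versus Sham (SE 0.21, adjusted p = 0.0186), and its value in MI versus Sham was 0.56 (adjusted p = 0.0699). Without MI_ART 3 the value in MI_ART was 0.82 (0.0679), and without MI 4 that in MI was 0.71 (0.0180). Of the 13, 3 were higher and 1 lower in MI_ART versus Sham, with a median of -0.13; with total counts 5 were higher and none lower. In MI_ART versus MI 0 of the 13 were called by edgeR, DESeq2 or limma-voom, and 0 had an unadjusted p under 0.05.

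A second list held 37 further genes of lymphatic identity, valves and signalling, 2 of which are also in the VEGF-C list. In MI versus Sham 11 were higher, 1 was lower and 25 did not pass the test (edgeR), with a median log2 fold change of 0.36, and with total counts 24 were higher and none lower. The transcription factor Foxc2, needed for lymphatic valves, averaged 2.81 CPM in MI_ART, 6.17 CPM in MI and 1.33 CPM in Sham, and rose by 2.21 in MI (SE 0.32, adjusted p = 0.000705). Sox18, a transcription factor upstream of Prox1 in mouse embryos, rose by 1.07 (0.0236), and Hhex, another endothelial transcription factor, by 1.16 (0.00477). Piezo1, the mechanosensitive channel required for lymphatic valves in mice, rose by 1.30 (0.00156), and Gja4, connexin 37 of valve cells, by 1.42 (0.0330). Without MI 4 Gja4 rose by 0.57 (adjusted p = 0.0425, edgeR), and Sox18 had 0.66 (0.0514), no longer a call.

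Several of the genes that rose are also expressed by other cells of the heart. Stab1, a scavenger receptor shared with macrophages, rose by 2.22 (adjusted p = 0.000438, edgeR), Thy1, shared with fibroblasts, by 2.22 (0.000844), and Emilin1, an elastic-fibre glycoprotein, by 2.89 (0.000729), or by 2.23 without MI 4. Angpt2, Nts and Svep1 were the others that rose (Angpt2 not without MI 4, adjusted p = 0.0648), and Tek, the angiopoietin receptor of endothelium, fell by 0.68 (0.0377), a call not made with total counts or without MI_ART 3 (0.0617). Ccl21a, the chemokine by which lymphatic vessels attract dendritic cells, had -0.91 (0.0533), and -1.33 without MI 4 (0.00484). Nr2f2, a partner of Prox1, had -0.02 (0.940).

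Of the 37 genes, 10 were higher and none lower in MI_ART versus Sham, with a median of 0.12 (20 higher and none lower with total counts). Foxc2 rose by 1.07 there (adjusted p = 0.0352, edgeR). In MI_ART versus MI 0 of the 37 were called by edgeR, DESeq2 or limma-voom, and 3 had an unadjusted p under 0.05. Foxc2 had -1.14 (adjusted p = 0.650) and Gja4 -1.30 (0.685) in that comparison, both without overlap between the groups; without MI 4 the value of Gja4 was -0.44. Leaving out the 2 libraries that stood apart gave 5 higher and 3 lower of the 13 and 10 higher and 2 lower of the 37 in MI versus Sham.

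**Figure D3:**
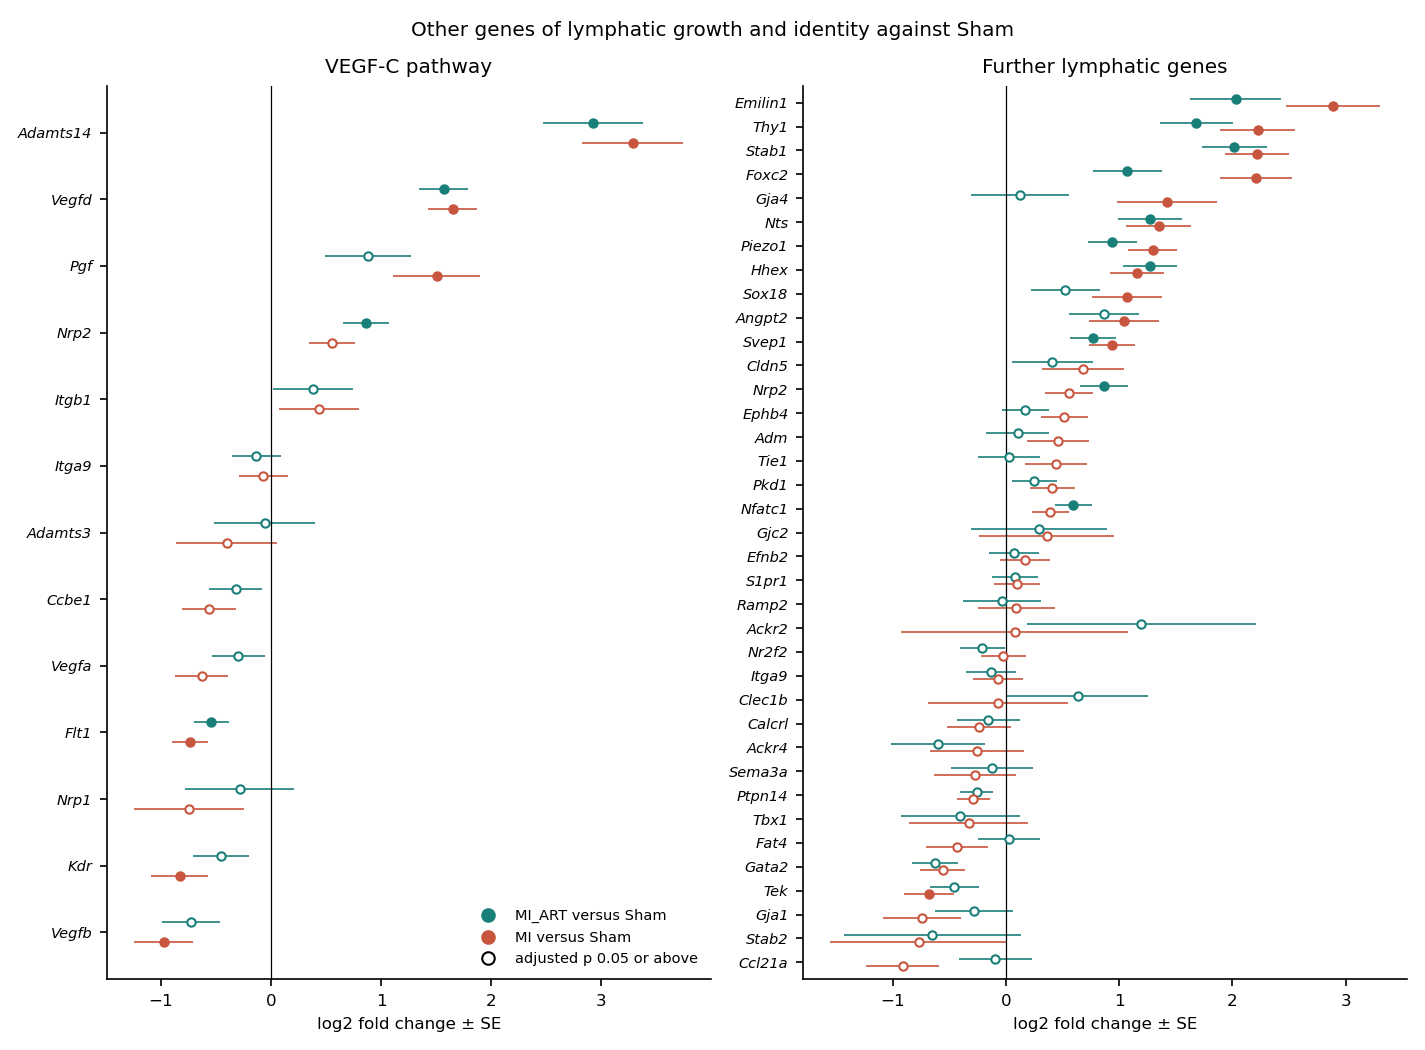
Log2 fold change ± SE (x axis, TMM scaling) of the 13 further VEGF-C pathway genes and of 37 further lymphatic genes against Sham, MI_ART in teal above MI in red; filled points had an adjusted p under 0.05. Vegfd and Adamts14 were positive and filled in both comparisons, while Foxc2 stood at 1.07 in MI_ART and 2.21 in MI.

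The general endothelial content of the libraries was read from 5 genes shared by blood and lymphatic endothelium, Pecam1, Cdh5, Tie1, Egfl7 and Esam. Their geometric mean was 99.1, 106.0 and 104.0 CPM in MI_ART 1, 2 and 3, 93.4, 119 and 167 CPM in MI 2, 3 and 4, and 106, 108 and 93.0 CPM in Sham 1, 2 and 3. MI 4 had the highest value, above the 119 CPM of MI 3. Of 20 blood and pan-endothelial genes, 2 were higher (Cd34 and Aplnr) and 6 lower in MI versus Sham (edgeR), with a median of 0.15, among them Fabp4, the fatty acid carrier of capillaries, which fell by 0.91 (adjusted p = 0.00411), a call not made with total counts. With total counts 14 of the 20 were higher and none lower. In MI_ART versus Sham 4 of the 20 were lower and none higher, and with total counts 6 were higher and none lower. The summed level of the 20 was 1799 to 2013 CPM in MI_ART, 1699 to 2538 CPM in MI and 2239 to 2372 CPM in Sham.

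Relative to that endothelial mean within each library, the log2 ratio of Mmrn1 was lower in MI than in Sham by 2.15, of Prox1 by 1.92 and of Reln by 1.48, without overlap; without MI 4 the drops were 1.71, 1.09 and 1.25. The ratio of Pdpn was higher by 2.01, also without overlap. For each of the 4 the exact permutation test gave p = 0.1 (two-sided), the smallest that 3 against 3 libraries allow. The ratios of Lyve1, Flt4 and Vegfc overlapped between MI and Sham, with differences of -0.99, 0.28 and -0.40 (exact p = 0.2, 0.4 and 0.4). Between MI_ART and MI, the ratios of Mmrn1 and Reln were higher in MI_ART by 1.38 and 1.11, without overlap (exact p = 0.1 each), and that of Prox1 differed by 1.17 with overlap (exact p = 0.3). Without MI 4 and MI_ART 3 these 3 differences were 0.72, 0.84 and 0.43, and without MI 4 alone that of Prox1 was 0.33. No scaling between libraries enters these ratios, but their size depends on the endothelial genes chosen. No gene of that mean was called in MI versus Sham (edgeR), with values from 0.14 for Cdh5 to 0.48 for Esam. Of the 20 blood and pan-endothelial genes, 6 were called lower, from -0.65 for Ly6c1 to -1.30 for Rgcc, and 2 higher, Cd34 and Aplnr. Beside these, Reln had -1.23, Prox1 -1.44 and Mmrn1 -1.85. A ratio to the genes that fell was not computed.

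Heart muscle also expresses Prox1, and muscle genes moved with it. Of 7 cardiac muscle genes 5 were lower and none higher in MI versus Sham (edgeR), with a median of -1.42, and with total counts 3 were lower, with a median of -0.59. Their summed level was 22700 to 31120 CPM in MI_ART, 19090 to 28180 CPM in MI and 48610 to 54710 CPM in Sham. Myh6, the alpha myosin heavy chain, fell by 1.42 (adjusted p = 0.000863) and Tnni3, cardiac troponin I, by 1.58 (0.000350). There were 4 of the 7 lower in MI_ART versus Sham, and 1 with total counts. The ratio of Prox1 to the geometric mean of the 7 muscle genes was 0.0173, 0.0159 and 0.0119 in MI_ART 1, 2 and 3, 0.0137, 0.0134 and 0.00758 in MI 2, 3 and 4, and 0.0137, 0.0152 and 0.00894 in Sham 1, 2 and 3. The 3 groups overlapped in this ratio, which differed by -0.14 on the log2 scale between MI and Sham (exact permutation p = 0.6) and by 0.14 without MI 4. Atrial muscle genes were called in no comparison (0 of 5 by edgeR, with 2, 2 and 0 at an unadjusted p under 0.05 in MI versus Sham, MI_ART versus MI and MI_ART versus Sham, and 1, 0 and 0 called by DESeq2), and of the 4 ventricular muscle genes tested, 2, Myl2 and Myl3, were lower in MI and in MI_ART than in Sham (with total counts 2 were lower in MI, and 1 was lower and 1 higher in MI_ART).

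In mouse hearts that lack Prox1 in muscle, genes of fast skeletal muscle are known to be expressed. Of 5 fast skeletal muscle genes tested here 2 were higher in MI than in Sham, with a median of 1.95, the value of Myl1. Tnnt3, fast troponin T, measured 2.42, 2.80 and 1.29 CPM in MI_ART 1, 2 and 3, 21.8, 33.1 and 63.5 CPM in MI 2, 3 and 4, and 0.77, 0.67 and 0.42 CPM in Sham 1, 2 and 3. The 3 groups did not overlap. Tnnt3 rose by 5.98 in MI versus Sham (adjusted p = 9.03e-05, edgeR) and by 1.8 in MI_ART versus Sham (0.0202), and it was lower in MI_ART than in MI, with -4.18 (0.0447, and 1.13e-18 by DESeq2). This call was lost with limma-voom (-4.11, 0.0666), with total counts (-4.31, 0.0577) and without MI 4 and MI_ART 3 (-3.39, 0.0688). Tnni2, fast troponin I, rose by 3.89 in MI versus Sham (0.00143). Of the rest, Myl1 had 1.95 (0.0879), Mylpf -0.15 (0.844) and Actn3 0.013 (0.995) in MI versus Sham, and none of them was called by edgeR. A relation of these genes to Prox1 was not tested.

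Lyve1 is shared with resident macrophages, whose genes did not move as one. Of 7 such genes 3 were higher and none lower in MI versus Sham (edgeR), with a median of 0.92, among them the mannose receptor Mrc1, which rose by 1.47 (adjusted p = 0.00237), and F13a1, by 1.34 (0.00507). Timd4 had -0.70 (0.172), with all MI libraries below Sham, and Cd163 had 0.13 (0.732). In MI_ART versus Sham 2 of the 7 were higher, and with total counts 6 were higher in MI, with a median of 1.75, and 5 in MI_ART. Their summed level was 473 to 582 CPM in MI_ART, 455 to 643 CPM in MI and 270 to 325 CPM in Sham. Relative to their geometric mean, Lyve1 stood at 0.346, 0.485 and 0.385 in MI_ART 1, 2 and 3, 0.387, 0.346 and 0.220 in MI 2, 3 and 4, and 0.833, 0.776 and 0.896 in Sham 1, 2 and 3. All infarcted libraries lay below all Sham libraries, with a log2 difference of -1.43 for MI and -1.06 for MI_ART (exact permutation p = 0.1 each, the smallest possible). That mean includes the genes that rose. Timd4 alone had -0.70 in MI and -0.78 in MI_ART against Sham, beside -0.71 and -0.47 for Lyve1. A ratio to Timd4 was not computed. Of 10 genes of recruited monocytes and macrophages all 10 were higher in MI and all 10 in MI_ART than in Sham, with medians of 4.25 and 4.14. Spp1, osteopontin, rose by 8.35 (7.61e-05) in MI and Cd68 by 3.79 (6.09e-05). The summed level of the 10 was 609 to 1570 CPM in MI_ART, 1165 to 1293 CPM in MI and 26.9 to 33.2 CPM in Sham.

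Pdpn is shared with activated fibroblasts and mesothelium. Of 10 activated fibroblast genes 9 were higher in MI and 8 in MI_ART than in Sham (edgeR), with medians of 3.96 and 3.67. Their summed level was 5957 to 7159 CPM in MI_ART, 7118 to 8335 CPM in MI and 592 to 1165 CPM in Sham. Postn, periostin, rose by 3.36 in MI (adjusted p = 8.76e-05) and Cthrc1 by 7.59 (2.56e-05). Of 5 general fibroblast genes 3 were higher and 1 lower in MI versus Sham, with a median of 0.64; Col1a2 rose by 3.71 (3.16e-05) and Dcn, decorin, fell by 0.57 (0.0274), a call not made with total counts. The fibroblast genes higher in MI_ART versus Sham were 2 of the 5, and 5 of the 5 with total counts (4 in MI).

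The ratio of Pdpn to the geometric mean of the 5 fibroblast genes was 0.133, 0.0881 and 0.0876 in MI_ART 1, 2 and 3, 0.0946, 0.111 and 0.122 in MI 2, 3 and 4, and 0.0510, 0.0462 and 0.0439 in Sham 1, 2 and 3. The infarcted libraries lay above Sham in this ratio too, by 1.21 on the log2 scale for MI and 1.11 for MI_ART (exact permutation p = 0.1 each). This ratio uses the general fibroblast genes. The activated fibroblast genes had a median of 3.96 in MI versus Sham, above the 2.31 of Pdpn, and a ratio to them was not computed. Of 10 mesothelial and epicardial genes 4 were higher in MI and 2 in MI_ART than in Sham, with medians of 1.04 and 0.74, and without MI 4 and MI_ART 3 these counts were 6 and 6, and with total counts 8 and 6. Krt18 rose by 2.25 in MI (0.00121, edgeR) and Krt19 by 2.65 (0.00301), while the defining mesothelial gene Msln had 1.198 (0.0744) and Upk3b 0.14 (0.845). Their summed level was 68.9 to 207 CPM in MI_ART, 169 to 316 CPM in MI and 84.6 to 138 CPM in Sham, so that MI_ART and Sham overlapped. The part of fibroblasts and mesothelium in the level of Pdpn was not tested.

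Mmrn1 is shared with platelets, whose genes differed among themselves. Of 7 platelet genes tested (8 listed) 3 were higher and none lower in MI versus Sham, with a median of 2.58, and 1 was higher in MI_ART versus Sham. Ppbp, a platelet chemokine, rose by 4.40 (adjusted p = 0.000510, edgeR), while Gp1ba had -0.86 (0.102), with all MI libraries below Sham, and Gp1bb -0.16 (0.927). The summed level of the 8 was 9.09 to 11.6 CPM in MI_ART, 11.2 to 24.9 CPM in MI and 3.25 to 4.70 CPM in Sham, and Gp6 was at 4 counts or fewer in every library. Of 8 neuron and glia genes 1, Tubb3, was higher in MI and in MI_ART than in Sham. Of 8 lymphocyte genes 2, Cd79a and Cd79b, were higher in MI versus Sham, and none without MI 4 and MI_ART 3. In MI 4 the neuronal genes Prph and Th had 716 and 194 counts, against 0 to 84 and 0 to 18 in the other libraries.

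**Figure D4:**
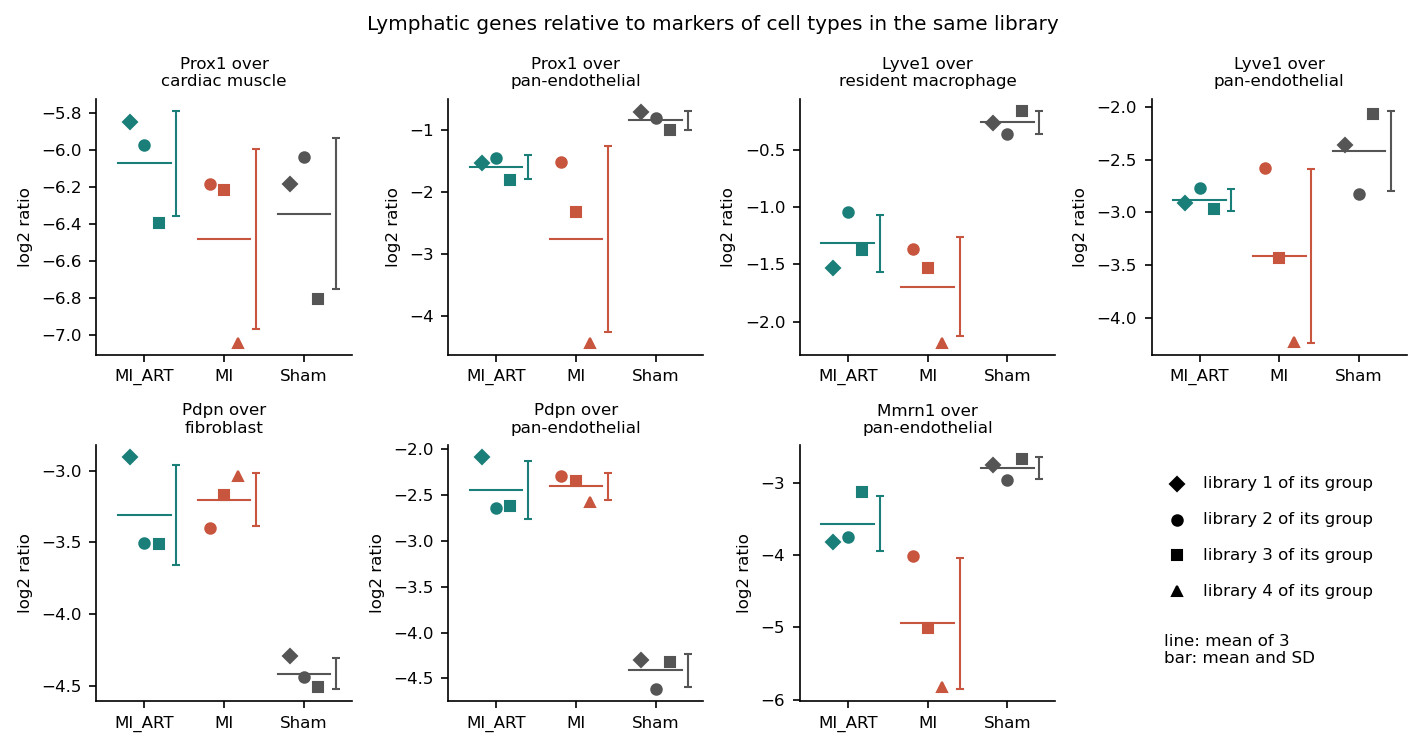
Log2 ratio (y axis) of Prox1, Lyve1, Pdpn and Mmrn1 to the geometric mean level of marker genes of a cell type in the same library, by group (x axis); points are libraries, lines are means and bars are SD (n = 3). The groups overlapped for Prox1 over cardiac muscle. In all MI_ART and MI libraries, Lyve1 over resident macrophage genes lay lower and Pdpn over general fibroblast genes lay higher than in Sham.

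Across the 9 libraries the 7 genes fell into patterns that follow the group means, so the correlations below describe shared group differences and have no test. Mmrn1 and Reln had the highest Pearson correlation of log2 levels, 0.93, and Prox1 correlated with Mmrn1 at 0.86 and with Lyve1 at 0.85. Flt4 correlated with Pdpn at 0.84, and Pdpn with Mmrn1 at -0.85. With the group means taken out, these became 0.54, 0.57, 0.65, 0.28 and -0.74.

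Likeness was sought among 13003 genes with a mean of at least 1 CPM, leaving out predicted, unnamed and mitochondrially encoded genes. The gene most like Prox1 over the 9 libraries was Neo1 (r = 0.99), and the next were Spice1 and Cnga3. For Mmrn1 these were Aqp4 (0.99), Fgf16 and Aqp7, and for Reln Adipor2 (0.98), Rab17 and Trim72. For Pdpn they were Ccl2 (1.00), Ch25h and Tubb3. Lyve1 was most like Fbxo45 (0.97), Ankrd29 and Bbof1, Flt4 most like Ascc2 (0.97), Zfp365 and Spire1, and Vegfc most like Sncaip (0.95), Amn1 and Rbbp4. With group means taken out, the closest genes were Mrs2 for Prox1, Ndufab1-ps and Myh7 for Mmrn1, Tmem143 for Reln, Rab3gap2 for Pdpn, Fbxo45 again for Lyve1, Gmeb2 for Flt4 and Rbbp4 for Vegfc, with r between 0.97 and 1.00. A likeness over 9 libraries that share group, depth and tissue makeup is a description only.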

How the data were processed

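The members and gene lists were chosen with earlier results of these data known. The deposited values are raw read counts per gene, which the authors made with HISAT and featureCounts 1.5.0-p3 on GRCm38, per the submitters' processing notes, which also name DESeq 1.8.3; the sources used here give neither the strand setting nor any pooling. Per the labels' protocols, 1.3 µg of total RNA went into a SMARTer mRNA library, while RNA extraction is described by 2 different kits. The counts per library and the series table agreed in every cell (0 differed), and 0 columns of the table were left unused.

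Counts were fitted with edgeR 4.0.16 in R 4.3.3 (TMM factors, filterByExpr, all 9 libraries, 1 mean per group, quasi-likelihood F test, Benjamini-Hochberg adjusted p under 0.05 over 19326 genes), checked on simulated counts. TMM factors were 1.14 to 1.17 in MI_ART, 1.19 to 1.28 in MI and 0.624 to 0.744 in Sham; a count of 3 equals 0.0322 to 0.0592 CPM. The common dispersion was 0.15. Intervals for fold changes use the t quantile of the fitted degrees of freedom. Ratios to marker genes use log2(CPM + 0.1) and exact permutation tests (scipy 1.17.1). Likeness is Pearson's r of log2(CPM + 0.1), without predicted genes (such as Gm and Rik names), unnamed genes and mitochondrially encoded genes. Alternatives were DESeq2 1.42.0, limma-voom (limma 3.58.1), other scalings and filters, 2-group fits, a replicate block and libraries left out. Gene coordinates come from RefSeq's GRCm38.p6 table.

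All 7 genes are named whatever their result. From each marker list, the 2 genes highest in mean level and the 2 with the smallest p in MI versus Sham may be named. Any gene of the 2 lymphatic lists may be named too. Aplnr, Prph, Th, Timd4, Cd163, Gp1ba, Gp1bb, Cd79a, Cd79b, Mylpf and Actn3 were named after their values were seen where they fall outside this rule. The 15 lists hold 156 genes, among them markers of blood endothelium, resident and recruited macrophages, fibroblasts, mesothelium, platelets, cardiac, atrial, ventricular and fast skeletal muscle, neurons and lymphocytes. Of the gene names, 119 occur more than once, Ccl21a among them, for which 1 row held counts.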

Additional observations from a re-analysis of the deposited data

How the results depend on the processing

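Of 420 alternative fold changes of the 7 genes (20 per gene and comparison), 380 kept their direction and side of the threshold, 18 lost and 12 gained a call, and 10 changed sign. In MI versus Sham, Pdpn and Mmrn1 kept their calls under all 20 alternatives, Reln lost its call with total counts alone, Prox1 lost it under 5 and Lyve1 under 12, with a change of sign under 1 more. The 5 genes called there became 3 when only the 2 groups were fitted (Prox1 at adjusted p = 0.0583, edgeR) and 3 to 5 when 1 library was left out. Over all 20 alternatives the count ran from 3 to 6. The 6399 genes called over all became 10172 with total counts and 4806 to 6701 when 1 library was left out. With only the 2 groups fitted, 3134 genes were higher and 2002 lower. In MI_ART versus Sham, the 1 gene called became 2 with DESeq2, 3 with total counts, 3 with only the 2 groups fitted, 2 without both libraries that stood apart, and 1 to 3 when 1 library was left out. The 3921 genes called over all became 8156 with total counts, 5941 with only the 2 groups fitted, and 2051 to 6330 when 1 library was left out. In MI_ART versus MI, the 2 genes called over all became 88 with DESeq2, 1 with limma-voom, total counts, upper-quartile factors, no filter or both libraries left out, 0 with only the 2 groups fitted (edgeR; 1346 genes had an unadjusted p under 0.05 in the fit of all groups), and 0 to 3 when 1 library was left out. The cause of these changes was not tested.

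Libraries with the same number in different groups showed no clear shared deviation (correlations -0.04 to 0.09, and -0.121 to 0.108 for different numbers). With 3 libraries a group, this check cannot exclude a pairing by number. With the replicate block, 1 gene was called over all in MI_ART versus MI, and 2 of the 7 genes and 5926 of all genes in MI_ART versus Sham, where Prox1 passed the test (adjusted p = 0.00340, edgeR); Lyve1 lost its call in MI versus Sham (adjusted p = 0.158), and Flt4 turned to -0.013 in MI_ART versus MI.

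The other changes of sign were small or came with total counts: Lyve1 at 0.14 and Vegfc at 0.73 in MI versus Sham, Lyve1 at 0.28, Mmrn1 at 0.014, Reln at 0.36 and Vegfc at 0.57 in MI_ART versus Sham, and Flt4 at -0.057 in MI_ART versus MI. In MI_ART versus MI, leaving out 1 library gave -0.061 to 0.12 for Flt4 and -0.105 to 0.039 for Vegfc. Of 240 alternative ratios, 9 changed sign. In MI_ART versus MI, Pdpn over pan-endothelial genes ran from -0.22 to 0.056 and Vegfc over them from -0.066 to 0.40 when 1 library was left out; without both libraries that stood apart, Vegfc over pan-endothelial genes was -0.091 and Pdpn over fibroblast genes 0.081. Prox1 over cardiac muscle genes in MI versus Sham ran from -0.37 to 0.14 when 1 library was left out and was 0.14 without both. The 7 genes had 197 to 3544 counts per library, which sets their counting error; with 3 libraries a group, no exact test of a ratio can go below p = 0.1.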
